A study of Sus scrofa with 2 samples.

Results

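RNA of the major plasma proteins of fetal and adult life was examined in biceps femoris muscle of abnormal and normal cloned piglets. Entries of the deposited tables were taken by 10 gene symbols (ALB, AFP, AHSG, APOA1, FGA, FGB, FGG, TTR, TF and SERPINA1) or by a protein description that names one of these proteins. This gave 7 of the 12535 entries with a read in either library. The symbol found ALB, APOA1, FGB and SERPINA1, and the description found AHSG (deposited under its older name FETUIN), FGA and APOA1BP. No entry was found for AFP, FGG, TTR or TF, so that 6 of the 10 symbols are represented. The tables hold only entries with at least 1 unique read, so for those 4 genes an unread transcript and a transcript absent from the reference set cannot be told apart. APOA1BP encodes a protein that binds apolipoprotein A-I and is not itself a plasma carrier. It entered through the wording of its description and is given separately throughout.

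Plasma proteins are made and secreted mainly by hepatocytes. Albumin carries fatty acids and hormones and maintains the osmotic pressure of blood, and alpha-fetoprotein and fetuin are prominent in plasma before birth and give way to albumin afterwards. Apolipoprotein A-I is the main protein of high-density lipoprotein, alpha-1-antitrypsin restrains neutrophil elastase, and fibrinogen, built of alpha, beta and gamma chains, is the precursor of fibrin in a clot. In muscle these proteins arrive mostly from blood, and their mRNA is normally scarce there.

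All piglets were made by somatic cell nuclear transfer, were delivered by caesarean section, and gave biceps femoris muscle on Day 1 after birth. The abnormal cloned group, labelled developmental failure, had a large tongue, difficulty in standing and walking and a defect of the umbilicus, and the normal cloned group was labelled normal. RNA of 3 abnormal piglets formed one pool, and RNA of 4 normal piglets per the study's methods (3 per the labels) formed the other, with 1 library from each pool. The 3 abnormal and 2 of the normal piglets came from embryonic fibroblasts of one male Large White pig. The other 2 normal piglets were cloned from the ear of a different male, and the pools were thus not matched for donor. The libraries held 6.38 M (abnormal) and 6.52 M (normal) unique reads, where 3 reads, the detection floor used here, equal 0.470 and 0.460 RPM (unique reads per 1000000 in the library). Mitochondrial transcripts took 36.0% of abnormal and 46.1% of normal reads. Of 8 skeletal muscle markers, ACTA1 (431743 and 390261 reads, abnormal then normal) and MYLPF (140363 and 131236 reads) were listed under these names, and CKM, TNNT3, TNNI2, DES, MB and PYGM were not.

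No difference reported here has a replicate check, because each group is a single library. The study also measured selected genes by Q-PCR, ALB among them. It reported that the Q-PCR went the same way as the RNA-seq, though fold changes might differ a little. Its methods do not say which piglets the Q-PCR used, so it is not counted as a replicate here. The 95% intervals are exact (Clopper-Pearson) intervals of the abnormal share of an entry's reads, turned into ratios, and cover counting error only. They leave out variation between piglets and between libraries. PCR reads without molecular identifiers are not independent molecules, so the intervals can be too narrow even for counting error. Because the genes were chosen with the reads of this comparison known, their values are a description and were not tested. In bulk muscle, fewer cells of a type and less RNA per cell cannot be told apart.

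Of the 7 entries, 5 were lower by 2-fold or more in the abnormal library (ALB, AHSG, FGA, FGB and SERPINA1). Among all 9235 entries with at least 10 reads over both libraries, 5.33% were lower by 2-fold or more, and since the genes were chosen on this contrast nothing is read from the difference. A 4-fold or greater reduction was seen in 4 of the 7 entries, against 0.931% of all entries. None of the 7 entries was higher by 2-fold or more, against 25.9% of all entries. Of the 7 entries, all with at least 10 reads in the normal library, 2 (AHSG and FGA) had 0 reads in the abnormal library, against 0.141% of the 7827 entries with at least 10 reads in the normal library. The median log2 ratio (abnormal over normal RPM) was at most -2.63 for the 7 entries, since it falls on FGA, whose ratio is a bound from the 3-read floor, and 0.39 for all 9235 entries, of which 31.6% lay below 0. Rescaling by the trimmed mean of M values (TMM) shifted every log2 ratio by -0.39 and moved the split of all entries to 11.8% lower and 15.0% higher. Scaling by the median ratio gave 11.1% and 15.6%, totals without mitochondrial transcripts gave 8.93% and 18.7%, and totals without the 20 most abundant transcripts gave 9.94% and 17.0%.

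**Figure D1:**
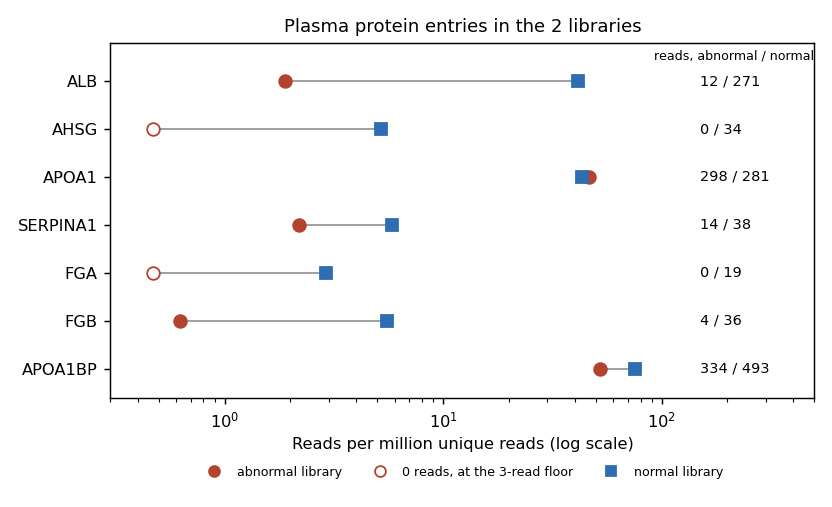
RPM (log scale) of the 7 plasma protein entries in the abnormal (circles) and normal (squares) libraries, with the read counts at the right and open circles for 0 reads set at the 3-read floor. ALB, AHSG, FGA and FGB stand far apart between the libraries, SERPINA1 less so, and APOA1 has 298 and 281 reads, a difference whose sign turns under each of the 4 other scalings of the libraries.

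Albumin had the most reads in the normal library among the entries that were lower by 2-fold or more. The ALB entry (gene 396960, Sscrofa9 chromosome 8, 58915609 to 58935318, minus strand, transcript length 2113 bases) had 12 unique reads in the abnormal library against 271 in the normal one, or 1.88 and 41.6 RPM. Its level was 22.1-fold lower in the abnormal library (95% interval 12.4 to 43.3), a log2 ratio of -4.47 (-5.44 to -3.64). Reads covered 20.7% of the transcript in the abnormal library against 88.6% in the normal one, so the normal reads were spread along nearly the whole mRNA. Per length, albumin stood at an RPKM (RPM per kb of transcript) of 0.890 in the abnormal library against 19.7 in the normal one. In the normal library 84.4% of listed entries had a lower RPKM than ALB, and in the abnormal library 26.1% did. No other listed entry overlapped ALB or any of the other 6 entries, so overlap with another listed gene does not touch these counts.

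Alpha-fetoprotein, the fetal counterpart of albumin, had no matched entry in either library, and a ratio of AFP to ALB could not be formed. Fetuin, the other protein abundant in fetal plasma and an inhibitor of mineral deposition, was read in the normal library only. The AHSG entry (gene 397585, chromosome 13, 94029112 to 94036187, plus strand, 1544 bases) had 0 reads in the abnormal library against 34 in the normal one, the latter equal to 5.22 RPM and an RPKM of 3.38. Those 34 reads covered 50.1% of the transcript. Against the 3-read floor AHSG was at least 11.1-fold lower in the abnormal library, a log2 ratio of at most -3.47. That bound leaves out counting error. The exact 95% interval reached to 8.54-fold lower, a log2 ratio of -3.09.

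Apolipoprotein A-I, which accepts cholesterol from cells and activates its esterification, was the exception among the secreted proteins. The APOA1 entry (gene 397691, chromosome 9, 43011531 to 43013681, minus strand, 1160 bases) had 298 reads in the abnormal library against 281 in the normal one, or 46.7 and 43.1 RPM. The log2 ratio of APOA1 was 0.12 (95% interval -0.12 to 0.36) with library totals and lay between -0.13 and -0.28 under the 4 other scalings, so its direction is not fixed by these data. Its coverage was 85.5% and 86.8% of the transcript. APOA1BP (gene 780405, chromosome 4, 97329396 to 97332301, plus strand, 1147 bases), whose product also repairs damaged NAD(P)H in most cells, had 334 and 493 reads. It was 1.44-fold lower in the abnormal library (1.25 to 1.67), a log2 ratio of -0.53.

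Alpha-1-antitrypsin, the chief serine protease inhibitor of plasma, differed less than albumin. SERPINA1 (gene 397688, chromosome 7, 124003262 to 124013640, minus strand, 1403 bases) had 14 reads in the abnormal library against 38 in the normal one, or 2.20 and 5.83 RPM. It was 2.66-fold lower in the abnormal library (1.41 to 5.31), a log2 ratio of -1.41 (-2.41 to -0.49), and the interval reaches to either side of the 2-fold line. Its coverage was 40.3% in the abnormal library against 63.4% in the normal one.

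Both fibrinogen chains with an entry were lower in the abnormal library, and the gamma chain had no matched entry. FGA (ENSSSCG00000008998, chromosome 8, 64023453 to 64031197, minus strand, 1793 bases) had 0 reads in the abnormal library against 19 in the normal one, at least 6.20-fold lower by the 3-read floor. That bound too leaves out counting error, and the exact 95% interval reached to 4.57-fold lower. FGB (gene 100514354, chromosome 8, 63998580 to 64007824, plus strand, 1973 bases) had 4 and 36 reads and was 8.81-fold lower (3.16 to 34.1), a log2 ratio of -3.14 (-5.09 to -1.66). These genes lie 15.6 kb apart in opposite orientation. Within the normal library the alpha chain stood at 0.581 of the beta chain per length (0.315 to 1.04), a ratio whose interval includes equality. The 4 reads of FGB in the abnormal library covered 9.93% of its transcript, and the 36 reads in the normal library 41.9%.

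**Figure D2:**
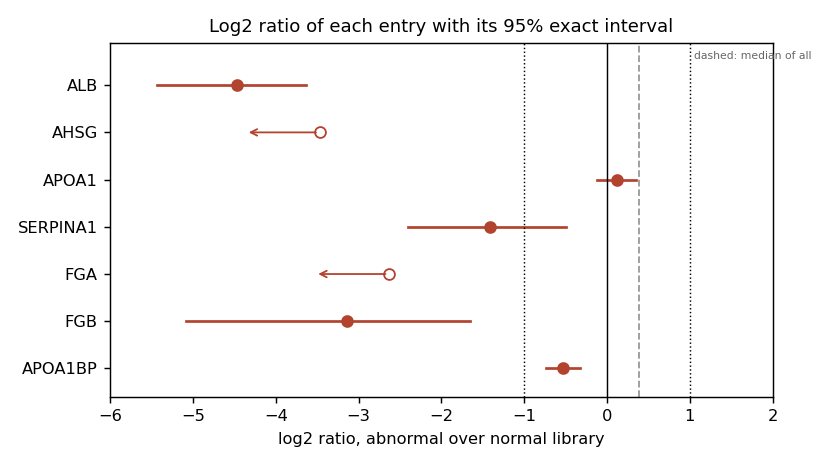
Log2 ratio (abnormal over normal RPM) of each entry with its 95% exact interval of counting error. Open circles with arrows are upper bounds from the 3-read floor and leave out counting error. Dotted lines mark 2-fold and the dashed line the median of all entries (0.39). ALB, AHSG, FGA and FGB lie wholly below the lower 2-fold line, SERPINA1 crosses it, and the interval of APOA1 includes 0, with a sign that turns under the 4 other scalings.

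Summed over the 7 entries, the reads were 662 in the abnormal library against 1172 in the normal one, a log2 ratio of -0.79 (-0.93 to -0.65). This sum was carried by APOA1 and APOA1BP, which held most of the reads in the abnormal library. Without APOA1BP the sums were 328 and 679 reads, a log2 ratio of -1.02. Without APOA1 as well, the 5 remaining plasma proteins had 30 and 398 reads, a log2 ratio of RPM of -3.70 (-4.29 to -3.16). Leaving out ALB too gave 18 and 127 reads over AHSG, SERPINA1, FGA and FGB, a log2 ratio of -2.79 (-3.59 to -2.07). Leaving out APOA1BP and APOA1 was chosen after the data were seen. It kept only the 5 entries already counted as lower, so nothing is read from these sums. With ALB alone left out the sums were 650 and 901 reads, a log2 ratio of -0.44 (-0.59 to -0.29).

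Ratios within a library do not depend on its total. Per length, ALB stood at 0.529 of APOA1 in the normal library (0.446 to 0.628) and at 0.0221 in the abnormal library (0.0113 to 0.0392), and these intervals do not overlap. SERPINA1 stood at 0.211 of ALB in the normal library (0.146 to 0.297) and at 1.76 in the abnormal library (0.754 to 4.16). Albumin was therefore above alpha-1-antitrypsin beyond counting error in the normal library and not distinguishable from it in the abnormal library. FGB to ALB was 0.142 (0.0976 to 0.202) in the normal and 0.357 (0.0839 to 1.18) in the abnormal library, which could not be separated with 4 and 12 reads. APOA1BP stood at 1.77 of APOA1 in the normal library (1.53 to 2.06) and at 1.13 in the abnormal library (0.967 to 1.33).

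In the normal library the order by RPKM was APOA1BP (66.0), APOA1 (37.2), ALB (19.7), SERPINA1 (4.16), AHSG (3.38), FGB (2.80) and FGA (1.63). The lower end of this order is not resolved. AHSG stood at 0.813 of SERPINA1 (0.496 to 1.33) and FGB at 0.829 of AHSG (0.504 to 1.36), so neighbours from SERPINA1 downwards did not differ beyond counting error. In the abnormal library the order was APOA1BP (45.7), APOA1 (40.3), SERPINA1 (1.56), ALB (0.890) and FGB (0.318). Of the summed RPKM of the 6 plasma proteins, APOA1 made up 54.0% in the normal and 93.6% in the abnormal library, and ALB 28.6% and 2.07%.

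**Figure D3:**
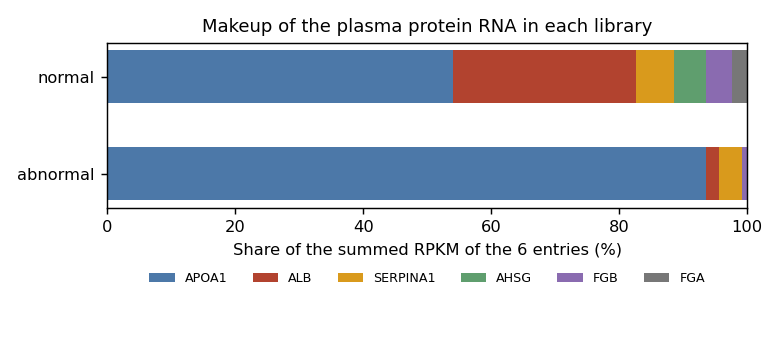
Share (%) of the summed RPKM of the 6 plasma protein entries, without APOA1BP, that each protein took in the normal and abnormal libraries. APOA1 takes 54.0% of the normal and 93.6% of the abnormal bar, and ALB 28.6% and 2.07%.

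One entry outside the selection bears on transferrin, the iron carrier of plasma, and was chosen after its values were seen. It carries no symbol in the tables, is described only as transferrin and has the symbol TF in Ensembl (ENSSSCG00000011640, chromosome 13, 61524788 to 61547197, minus strand). This entry had 3 reads in the abnormal library against 15 in the normal one, 4.89-fold lower in the abnormal library (1.38 to 26.4), a log2 ratio of -2.29.

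Other proteins that the liver secretes into plasma were taken from lists of apolipoproteins and carriers and of coagulation factors and inhibitors. Of their 36 entries, 17 had at least 10 reads over both libraries. Of these, 8 (47.1%) were lower by 2-fold or more, against 5.33% of all entries. A further 2 were higher, against 25.9% of all entries, and 7 lay between, with a median log2 ratio of -0.81. The other 19 entries summed to 9 reads in the abnormal library against 56 in the normal one, and 16 of them were higher in the normal library. The matching share among all entries under 10 reads was not counted. Because the lists were chosen with earlier results of these data known, nothing is read from these counts.

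Among apolipoproteins and carriers, 18 of 24 genes had an entry, 8 entries had at least 10 reads, 3 were lower by 2-fold or more and none was higher, with a median log2 ratio of -0.46. ORM1, an acute-phase glycoprotein that binds drugs, had 6 reads in the abnormal library against 45 in the normal one, a log2 ratio of -2.88 (-4.40 to -1.64). APOC3, an inhibitor of lipoprotein lipase, had 0 and 26 reads, and APOH, which binds phospholipids, had 1 and 13. Haptoglobin, which captures free haemoglobin, had 24 and 43 reads (HP, log2 ratio -0.81, -1.60 to -0.06). Others stood nearer to equality, as for APOE, made by macrophages as well as hepatocytes, with 158 and 150 reads. AZGP1, a secreted zinc-binding glycoprotein, had 12 and 7 reads (log2 ratio 0.81, -0.65 to 2.39).

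Among coagulation factors and inhibitors, 18 of 31 genes had an entry, 9 entries had at least 10 reads, 5 were lower and 2 higher by 2-fold or more, with a median log2 ratio of -1.55. HRG, a plasma glycoprotein that binds heparin and plasminogen, had 0 reads in the abnormal library against 26 in the normal one. It is deposited under the symbol SENP2 and named here from its description and gene number. A2M, the broad protease trap of plasma, had 12 and 42 reads (log2 ratio -1.78). SERPING1, the inhibitor of complement C1, had 1334 and 1302 reads, a log2 ratio of 0.07 that is smaller than the shift made by each other scaling. The 2 entries higher in the abnormal library were ITIH4, a heavy chain of the inter-alpha-trypsin inhibitor family, with 207 and 29 reads (log2 ratio 2.87, 2.30 to 3.48), and AGT (ENSSSCG00000010184), the precursor of angiotensin, with 170 and 37 reads (log2 ratio 2.23, 1.71 to 2.79). Plasma proteins thus lay on both sides of equality in the abnormal library.

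**Figure D4:**
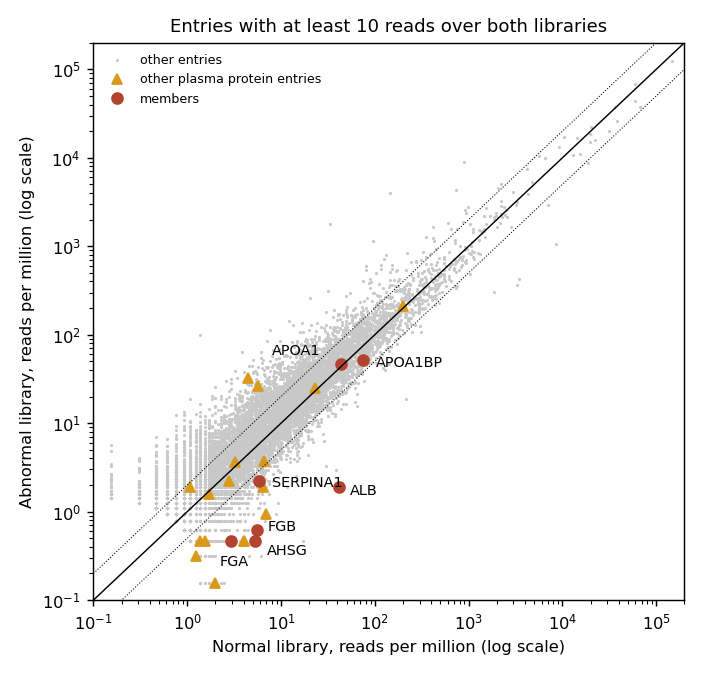
RPM in the normal (x axis) and abnormal (y axis) library, both log scales, for entries with at least 10 reads over both libraries, with 0 reads set at the 3-read floor. The solid line is equality and the dotted lines are 2-fold. ALB, FGA, FGB, AHSG and SERPINA1 lie under the lower dotted line with 8 of the 17 other plasma protein entries (triangles), while 2 triangles lie above the upper one.

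Genes of the hepatocyte that are not secreted were few in both libraries. Of 28 hepatocyte enzymes and transporters, 14 had an entry (15 entries), and their reads summed to 74 in the abnormal library against 104 in the normal one, 1.38-fold lower as RPM in the abnormal library (1.01 to 1.88). Of the 7 entries with at least 10 reads, 3 were lower and 1 was higher by 2-fold or more, with a median log2 ratio of -0.33. SLC10A1, the bile acid importer of hepatocytes, had 3 and 16 reads (log2 ratio -2.38). ASS1 and OTC, urea cycle enzymes, had 30 and 37 reads and 8 and 10 reads, and CPS1 of the same cycle had 11 and 3. FABP1, ASGR1, TAT, TDO2, CYP2E1 and HAMP, which mark hepatocytes, were not matched to an entry by symbol or description. The part of hepatocyte RNA in the albumin and fibrinogen values was not tested.

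Of 17 liver transcription factors, 8 had an entry and 3 had at least 10 reads, none lower and 1 higher by 2-fold or more, with a median log2 ratio of 0.74. CEBPA, a factor of hepatocyte differentiation, had 0 reads in the abnormal library against 4 in the normal one. CEBPD and CEBPB, acute-phase factors also found outside the liver, had 251 and 154 reads and 77 and 62 reads. NR1I3, the xenobiotic receptor deposited as CAR, had 38 and 13 reads. HNF4A, FOXA1 and FOXA2 were not matched to an entry in the same way, and adding Ensembl symbols brought this list from 8 to 9 entries, with summed reads of 379 and 243.

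The receptors, transporters and partners of plasma proteins were measured with 31 entries for 19 of 27 genes. Of the 20 entries with at least 10 reads, none was lower and 10 were higher by 2-fold or more, as were 25.9% of all entries, and the median log2 ratio was 0.99. Under the 4 other scalings 5 or 6 of the 20 were higher and 0 to 3 lower. With library totals LRP2 and INSR each had multiple entries among the higher ones, so these are counts of entries and not of genes. The most abundant entry of the list was SPARC, an albumin-binding matrix protein, with 10463 reads in the abnormal library against 13148 in the normal one. Ferritin, which stores the iron that transferrin delivers, had 2075 and 3030 reads for FTL, and 1314 and 1915 for the more abundant FTH1 entry. LRP2, an endocytic receptor that takes up albumin, had 21 and 1 reads in the entry with the largest ratio (ENSSSCG00000015928) and 54 and 6 in its other entry. TFRC, the transferrin receptor, named after its values were seen, had 788 and 259 reads, a log2 ratio of 1.64 (1.43 to 1.84).

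Fetal liver and oncofetal genes did not separate the libraries by 2-fold. Of 10 genes, 4 had an entry and 2 had at least 10 reads, with a median log2 ratio of -0.32. GPC3, a growth-restraining glypican, had 288 reads in the abnormal library against 381 in the normal one, and DLK1, an imprinted fetal growth regulator, had 293 and 359. EPCAM had 1 read in each.

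Marker lists of other cells that muscle can hold were set beside these values. Erythroid markers (6 of 14 genes) summed to 8087 reads in the abnormal library against 12284 in the normal one, and the globin transcripts took 0.126% and 0.188% of all reads. HBA and HBB had 5352 and 8266 reads and 2692 and 4003 reads, while SLC4A1, the red cell anion exchanger, had 21 and 5. Macrophage markers (6 of 8 genes) summed to 240 and 320 reads. With library totals 1 of 6 entries was lower by 2-fold or more (AIF1, 19 and 44 reads), as were 5.33% of all entries. Under each of the 4 other scalings 4 of the 6 were lower, as were 8.93% to 11.8% of all entries. Of the other macrophage markers, FCER1G and TYROBP had 45 and 82 reads and 26 and 47 reads, and CSF1R and MRC1 95 and 91 and 34 and 19. Endothelial markers (7 of 8) summed to 1575 and 1645 reads and fibroblast markers (4 of 8) to 19758 and 21884. Adipocyte markers (4 of 8) summed to 43 and 46 reads and intestinal and yolk sac markers (3 of 8), of tissues that also make APOA1, to 12 and 9. Erythroid and macrophage RNA was thus lower in the abnormal library together with ALB, FGA, FGB and AHSG, by less than 2-fold in sum, and its part in those values was not tested.

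**Figure D5:**
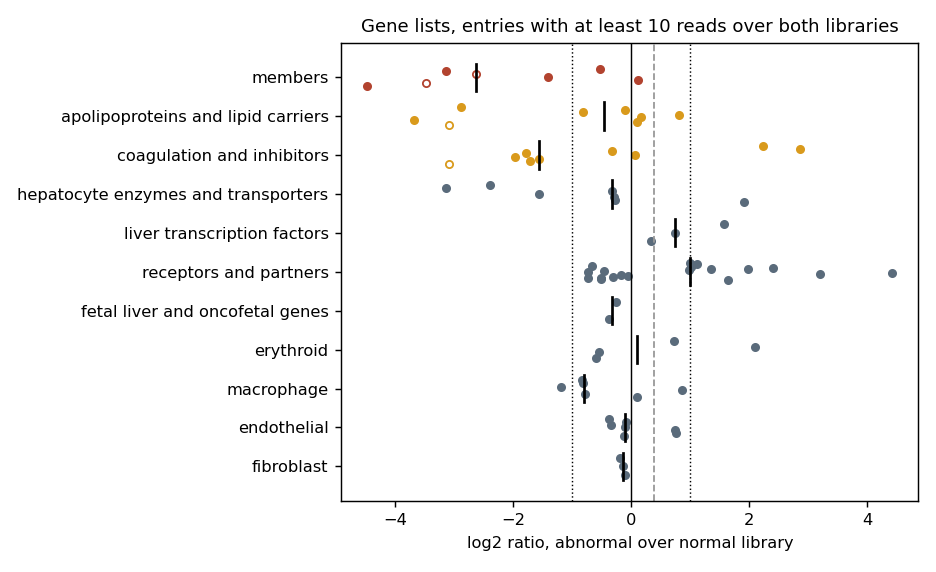
Log2 ratio (abnormal over normal RPM) of each entry with at least 10 reads, by gene list, with open circles for bounds from the 3-read floor, black bars for medians, dotted lines at 2-fold and a dashed line at the median of all entries. The plasma protein entries (members) have a median of at most -2.63, set by a bound, and the coagulation list has a median of -1.55. The endothelial, fibroblast, erythroid and macrophage medians are -0.10, -0.14, 0.09 and -0.80. All medians are with library totals, and each of the 4 other scalings shifts them downwards alike.

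Entries within 200 kb of the plasma protein genes did not share one direction. APOC3, 2.83 kb from APOA1 in the same apolipoprotein cluster, had 0 and 26 reads (abnormal then normal), where APOA1 itself had 298 and 281. On its other side SIK3, a kinase gene 6.68 kb away, had 897 and 288 reads, and beyond APOC3 the genes ZPR1 and BUD13 had 517 and 280 and 136 and 110. Beside AHSG, HRG at 66.6 kb had 0 and 26 reads and FETUB, the paralogue of fetuin at 41.8 kb, had 0 and 5. Other genes of that region serve general cell functions, and of these DNAJB11 had 272 and 233 reads, TBCCD1 63 and 28, RFC4 87 and 58 and EIF4A2 5253 and 2525. Next to the fibrinogen genes PLRG1, a splicing factor, had 97 and 65 reads, and an entry described as protocadherin-23 (ENSSSCG00000008999) 0 and 12. Further along, an entry described as dachsous 2 (ENSSSCG00000009000) had 4 reads in each library. ALB had 1 neighbour with at least 10 reads, a COX18-like entry (LOC100520317) with 18 and 9, and afamin, of the albumin family, 146 kb away had 0 and 4. Beside APOA1BP, ENSSSCG00000006481 had 269 and 222 reads and ENSSSCG00000006482, described as MEF2D, 775 and 216.

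Among the 4950 entries with at least 100 reads, those nearest to ALB in log2 ratio over these 2 libraries were a cytochrome b-c1 subunit (LOC100519626, 0 and 111 reads), 2 entries described as myosin light chain 6B (19 and 250 reads and 21 and 198 reads), MYH7 (120 and 1407 reads) and TNNC1 (2336 and 21598 reads). The log2 ratios of the last 4 differed from that of ALB by 0.78 to 1.29, and that of the cytochrome b-c1 subunit, a bound, by at least 0.71, so its place in this order is not settled. The likeness rests on a single ratio per entry. In the normal library reads covered 3.97% of the MYH7 transcript, 16.8% of each myosin light chain 6B entry and 14.5% of the cytochrome b-c1 subunit. Coverage of TNNC1 was 98.3% and that of ALB 88.6%.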

How the data were processed

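RNA-seq of biceps femoris muscle was analysed in 1 library of abnormal and 1 of normal cloned piglets, grouped by the sample titles. Per the methods, the authors filtered the reads and mapped them to Sscrofa9 transcripts with SOAPaligner/soap2, and they deposited the count of uniquely mapped reads per transcript, without normalization. The deposited RPKM scales the count to 1 kb of transcript and 1000000 unique reads. The authors further give the percent of each transcript covered by reads. The aligner version is not given in the sources used here, and the library protocol describes no strand marking, so antisense reads cannot be told apart.

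Both tables were joined on the gene number, with an entry missing from a table taken as 0 reads. RPKM recomputed from the counts matched the deposited values within 3.3e-08. Log2 ratios used RPM with library totals, and 0 reads were set to 3. Entries with at least 10 reads over both libraries were counted as lower or higher at a log2 ratio of 1 in size. RefSeq symbols matched 7194 of 8429 Entrez numbers. In the lists, 7 entries whose description names another protein were left out after the tables were seen. With 1 library per group no model was fitted and no test was made.

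The genes and gene lists were chosen with earlier results of these data known. Named were all 7 entries, and of each list the 3 entries with the most reads and, among those with at least 10 reads, the largest and smallest ratio. Neighbours within 200 kb with at least 10 reads (at most 5 for each gene) and the 5 entries most like ALB were also named. The transferrin entry, TFRC, A2M, CEBPA, the second LRP2 entry and neighbours under 10 reads were named after their values were seen. An entry that this rule takes from the hepatocyte list is not reported here. Alternatives were scaling by the median ratio or by TMM (edgeR 4.0.16), totals without mitochondrial or the 20 most abundant transcripts, a pseudocount of 0.5 reads, an RPKM of 0 set to 0.001, no filter or at least 30 reads, and a log2 ratio of 2. The scripts were tested on simulated data and used Python 3.11.15 with pandas 2.3.3 and scipy 1.17.1.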

Additional observations from a re-analysis of the deposited data

How the results depend on the processing

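ALB, AHSG, SERPINA1, FGA and FGB kept their direction and stayed within their counting intervals or bounds under the 6 alternatives run for each. The log2 ratio of APOA1 turned to -0.24 with median-ratio scaling, -0.28 with TMM, -0.13 without mitochondrial transcripts and -0.19 without the 20 most abundant transcripts, since each of these shifts every ratio downwards. In the same order that of APOA1BP moved to -0.89, -0.92, -0.78 and -0.84, and that of the summed reads, -0.79 with library totals, to -1.15, -1.19, -1.04 and -1.10. The summed reads gave -0.44 without ALB and, in alternatives chosen after the data were seen, -1.02 without APOA1BP, -3.70 without APOA1BP and APOA1, and -2.79 without ALB as well. The count of 5 plasma protein entries lower by 2-fold or more became 3 by symbol alone, which leaves out AHSG and FGA. With at least 30 reads, 1 apolipoprotein or carrier, 1 coagulation factor or inhibitor and 0 hepatocyte enzymes or transporters were lower, against 3, 5 and 3, and at a log2 ratio of 2 there was 1 coagulation factor or inhibitor. Receptors and partners lower by 2-fold or more numbered 0 with library totals, 3 with median-ratio scaling, 3 with TMM, 2 without the 20 most abundant transcripts and 1 with no filter on reads. Those higher numbered 10 with library totals, 5 with median-ratio scaling or TMM, and 6 without mitochondrial or the 20 most abundant transcripts, counted after the data were seen.

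No paired analysis was possible because each group has 1 library and no test was made. Leaving out a library was not run, as it leaves a group empty. Depth limits AHSG and FGA to bounds, and SERPINA1 and FGB to wide intervals.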

Other observations

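Plasma proteins made up 4 of the 11 entries with at least 10 reads in the normal and 0 in the abnormal library (AHSG with 34, HRG with 26, APOC3 with 26 and FGA with 19 reads). The other 7 were a cytochrome b-c1 subunit (LOC100519626) with 111 reads, ADAMDEC1, a metalloprotease of tissue macrophages, with 14, C8H4orf48 with 14, an entry described as protocadherin-23 (ENSSSCG00000008999) with 12, UBD, a ubiquitin-like protein induced by inflammatory cytokines, with 11, ISM1 with 11 and ENSSSCG00000002574 with 10. In the opposite direction 11 entries had at least 10 reads in the abnormal library against 0 in the normal one, and 0 of them were plasma proteins of these lists. AHSG and FGA are among the genes chosen on this contrast. The lists with HRG and APOC3 were likewise chosen with earlier results of these data known. Nothing is therefore read from these counts.

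The 3 entries described as insulin receptor, which AHSG binds and inhibits, had 52 and 10 reads (ENSSSCG00000013566, abnormal then normal), 27 and 7 reads (ENSSSCG00000013563) and 15 and 6 reads (INSR). LMAN1, a cargo receptor for coagulation factors and alpha-1-antitrypsin in the secretory pathway, had 131 and 62 reads, and ITGAV, an integrin chain that binds fibrinogen, had 59 and 30. These genes were named after their values were seen.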
